A study of Bos taurus with 9 samples.

Results

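Collagen chain genes were followed in cultured bovine endometrial cells that were left untreated, given ovarian steroids, or given the steroids and then interferon tau (IFNT). A gene was taken as a member when its symbol consisted of COL, a type number, the letter A and a chain number, such as COL1A1, which the table lists as gene-COL1A1. This gave 39 of the 17162 genes in the table. The rule itself used no measured value, although it was set with earlier results of these data known. They were divided into 11 fibrillar, 6 basement membrane and 22 other collagen genes.

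Collagens are secreted proteins whose chains wind into a triple helix and then build the scaffold of connective tissue. Fibrillar collagens form the banded fibrils that carry tension, type IV collagens form the sheet-like network of basement membranes under epithelia and around vessels, and the remaining types link, coat or anchor these structures. In the uterus the stroma beneath the lining is rich in collagens of types I, III, V and VI, and this matrix is remodelled as the endometrium prepares for the conceptus.

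RNA was sequenced in 9 libraries, 3 in each of 3 groups of wild-type cells grown from bovine endometrium, described by the submitters as primary epithelial cells. CON cells were untreated, GA cells received 1 nM estradiol (E2) and 100 nM progesterone (P4), read from the methods as lasting 12 h, and GB cells had 12 h of the same hormones followed by another 12 h with 100 ng/mL IFNT, the type I interferon by which the ruminant conceptus signals its presence. The medium of all 3 groups contained fetal bovine serum. The cells had been purified by differential attachment over several passages, and how many cows they came from is not stated. Nothing says that the replicates of a group came from separate animals, so the p-values measure the spread between these libraries, which may be technical. When CON and GA cells were collected is not stated separately, so a difference between any of the groups cannot be told apart from a difference in culture time.

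Expression was given by the authors as FPKM, fragment counts scaled to exon length and to the mapped reads of a library, which is a level per length and so can be compared between genes. No read counts were used and the number of reads behind a value is unknown. The FPKM of a library summed to between 1395622 and 1442723. Of 8 epithelial marker genes (KRT7, KRT8, KRT18, KRT19, CDH1, CLDN4, ESRP1 and MUC1), 0 reached a mean of 0.5 FPKM, the highest single value was 0.74, and their summed FPKM ranged from 0.54 to 1.77 for CON, from 0.93 to 1.72 for GA and from 1.33 to 2.23 for GB. All 8 stromal fibroblast markers (VIM, DCN, LUM, PDGFRA, PDGFRB, THY1, TWIST1 and FBLN1) were above that level. Their summed FPKM ranged from 11534 to 12498 for CON, from 11976 to 12197 for GA and from 10809 to 10857 for GB. Of 4 endothelial markers (PECAM1, CDH5, KDR and VWF), 1 reached a mean of 0.5 FPKM, and the sum of the 4 was 1.33 to 3.34 FPKM over the 9 libraries. KRT18, the gene of cytokeratin 18, was between 0.16 and 0.67 FPKM. The study identified its cultures as epithelial by immunofluorescence for the cytokeratin protein, which was not analysed here. At the level of RNA the marker genes go against the label of epithelial cells, and the cells are called endometrial cells here.

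Of the 39 collagen genes, 25 had a mean of at least 0.5 FPKM over the 9 libraries and were tested, 23 reached 1 FPKM, 16 reached 10 and 12 reached 100. The highest was COL1A2, the second chain of type I collagen, with a mean of 2615 FPKM, which placed it 87th in level among all genes. COL1A1, which contributes the main chain of type I collagen, followed at 2389 FPKM and rank 99. The type VI chains COL6A1 and COL6A2 came next at 1518 and 1295 FPKM. COL6A3, COL12A1 and COL4A1 stood together at 626, 609 and 604 FPKM. The libraries of COL12A1 and COL4A1 overlapped in CON and in GA, so that these neighbours were not ordered there, and COL4A1 was above COL12A1 in all 3 GB libraries. COL1A2 and COL1A1 were apart in CON and GA and overlapped in GB, whereas COL1A1, COL6A1, COL6A2 and COL6A3 kept this order without overlap in each group. Below them, COL4A2 and COL3A1 overlapped in CON and were apart in GA and GB, with COL4A2 the higher. The means were 361 FPKM for COL4A2, 352 for COL3A1, 294 for COL5A2, 216 for COL15A1 and 148 for COL5A1.

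**Figure D1:**
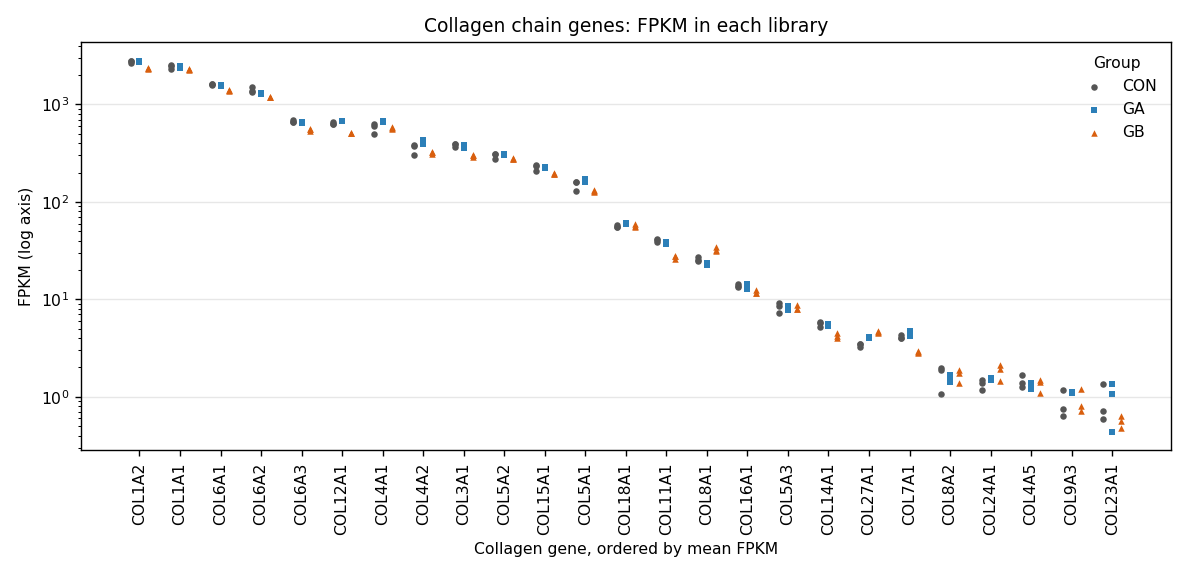
FPKM on a log axis of the 25 collagen genes with a mean of at least 0.5 FPKM, with a point for each of the 3 libraries of CON, GA and GB. The genes run from COL1A2 at a mean of 2615 FPKM to COL23A1 at 0.799, and the GB points lie below the others for genes such as COL3A1, COL11A1 and COL12A1 and above them for COL8A1.

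The other 14 collagen genes had means under 0.5 FPKM and were not tested. Single values lay between 0 and 0.5 FPKM, and 38 of the 126 values were listed as 0. They were the fibrillar genes COL2A1 and COL11A2, the basement membrane genes COL4A3, COL4A4 and COL4A6, and 9 others, among them COL10A1 of hypertrophic cartilage and COL17A1 of epithelial hemidesmosomes. COL17A1 was at 0 to 0.10 FPKM and COL22A1 was above 0 in only GB2, at 0.02 FPKM. Of 44 such symbols in the RefSeq gene table for ARS-UCD2.0, COL6A6, COL9A1, COL21A1, COL25A1 and COL28A1 were not analysed here. A further 12 genes with LOC symbols are described in the deposited data as collagen alpha chains and are not members, and 3 of these reached a mean of 0.5 FPKM, the highest at 12.9. Among the 12, LOC530102 is described as the alpha-6 chain of type VI and had a mean of 0.013 FPKM.

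Differences were tested with limma on log2(FPKM + 0.5), in 1 fit over the 9 libraries and 12578 genes, and a gene was called when its Benjamini-Hochberg adjusted p was under 0.05. Each log2FC below is on that scale, on which the change of a gene with a low FPKM comes out too small. In GB vs. CON, 11 of the 25 collagen genes (44.0%) fell and 2 rose, against 17.3% of all tested genes lower and 16.2% higher. In GB vs. GA, 12 of 25 (48.0%) fell and 1 rose, against a background of 19.2% lower and 9.87% higher. No collagen gene had an absolute log2FC above 1 in either comparison, although among all tested genes 1.07% were called with such a fall and 2.94% with such a rise against CON, and 0.978% and 2.66% against GA. In GA vs. CON, 0 of 25 were called by limma, with 6 at an unadjusted p under 0.05, and the background was 0.207% lower and 0.246% higher. The median log2FC over the 25 genes was -0.21 against CON and -0.20 against GA for GB, and -0.0035 for GA vs. CON, beside -0.016, -0.075 and 0.061 over all genes tested. The filter on a mean of 0.5 FPKM is taken over all groups, and the 25 genes are not all members.

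The same counts were also taken over genes with a mean of at least 10 FPKM. There, 9 of 16 collagen genes fell and 1 rose in GB vs. CON, against 20.0% lower and 19.5% higher among 8587 genes at that level. In GB vs. GA, 10 of 16 fell and 1 rose, against 22.6% and 11.6%. The comparisons share the GB libraries, and their calls are therefore given side by side. COL1A2, COL3A1, COL6A1, COL6A3, COL7A1, COL11A1, COL12A1, COL14A1 and COL15A1 were called lower in both. COL6A2 and COL16A1 were called lower in GB vs. CON alone and COL4A2, COL5A1 and COL5A2 in GB vs. GA alone, and whether these genes differ between the comparisons was not tested. COL8A1 was called higher in both and COL27A1 in GB vs. CON. By the moderated F test of the same fit, 14 of 25 collagen genes differed among the 3 groups at an adjusted p under 0.05, beside 34.6% of all tested genes.

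**Figure D2:**
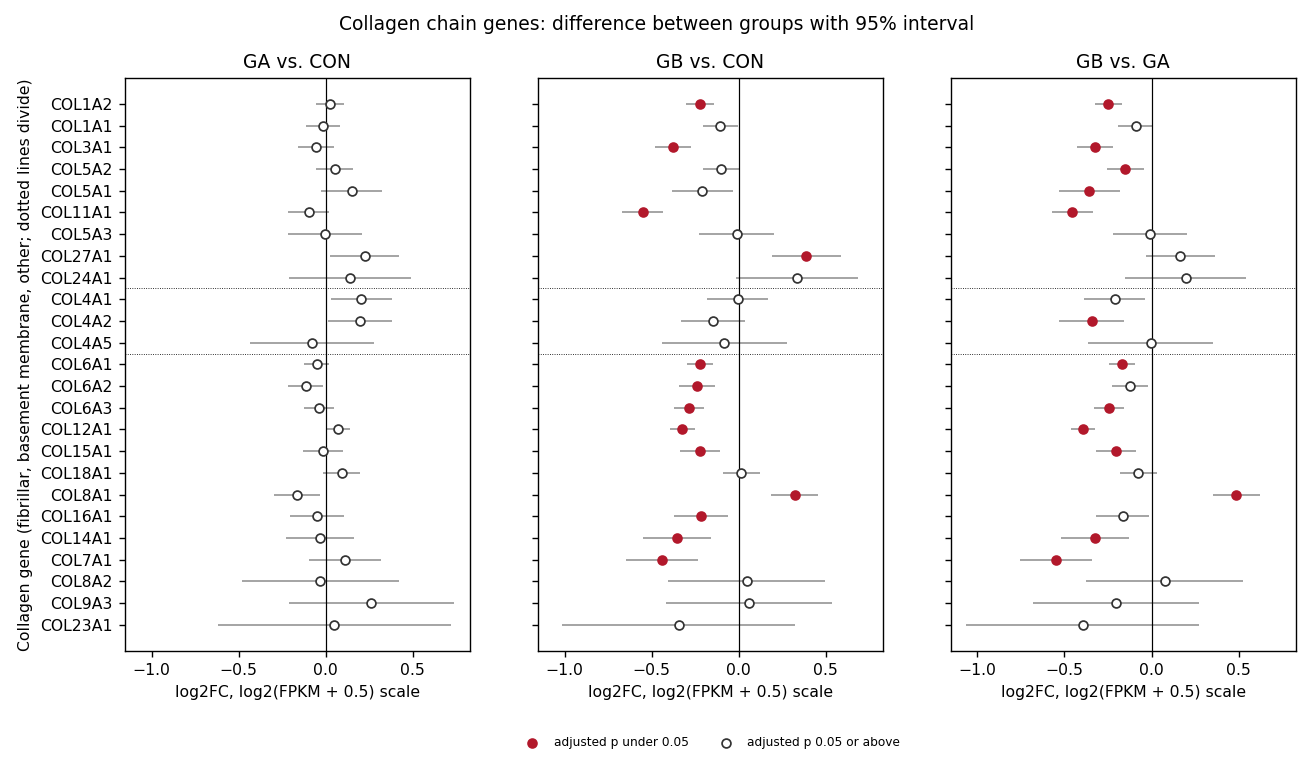
log2FC on the log2(FPKM + 0.5) scale with its 95% interval for the 25 tested collagen genes in the 3 comparisons, with filled points at an adjusted p under 0.05 and dotted lines between fibrillar, basement membrane and other genes. No point is filled in GA vs. CON, the GB vs. CON panel has 13 filled points and the GB vs. GA panel 13, and most of these lie left of 0.

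Counted by libraries, all 3 GB values lay below all 3 CON values for 12 of the 25 collagen genes and above them for 2, where the background over all tested genes was 23.9% and 22.2%. Against GA, GB lay below for 16 and above for 2, with a background of 31.0% and 15.7%. GA lay above CON for 6 and below for 3, beside 18.6% and 6.13%. CON2 was the lowest of the CON libraries for 20 of the 25 genes, and GB3 was the lowest of the GB libraries for 18. The same was not counted over all tested genes, so these counts are not read as particular to collagen genes. Leaving out CON2 raised the calls of lower collagen genes against CON to 14, while those over all tested genes went from 2178 to 2092. In this bulk RNA, fewer cells of a type and less RNA per cell cannot be told apart. The summed stromal fibroblast markers lay lower in GB than in CON and GA, a sum that VIM dominates with a mean of 9082 FPKM in CON, 8759 in GA and 7777 in GB. As a list these markers did not move 1 way. Against CON, VIM and PDGFRB were called lower and PDGFRA higher, 4 of 8 had a log2FC below 0 and the median was -0.034. Against GA, VIM, DCN and LUM were called lower and PDGFRA higher, and the median was -0.081. None of these 3 lower calls held in every fit without 1 library, while that of PDGFRA did. With median-of-ratios scaling VIM and LUM were not called against GA, at -0.097 (SE 0.051, adjusted p = 0.198) and -0.071 (SE 0.037, adjusted p = 0.19). In GA vs. CON, DCN and LUM were called higher and PDGFRB lower, and each of these calls was lost under several alternatives. The markers of smooth muscle and pericytes (ACTA2, DES, MYH11 and RGS5) summed to between 2889 and 3472 FPKM for CON, 2644 and 2927 for GA and 2531 and 2655 for GB. ACTA2 dominates this sum, with a mean of 2856 FPKM in CON. The 3 of them tested had log2FC below 0 in every comparison. DES was called lower in GA vs. CON at -0.35 (adjusted p = 0.0138), in GB vs. CON at -0.61 (adjusted p = 3.55e-06) and in GB vs. GA at -0.27 (adjusted p = 0.00109). ACTA2 was called lower in GB vs. CON at -0.24 (adjusted p = 0.033). The ACTA2 call and the first DES call were lost under several alternatives. The part of these shifts in the collagen differences was not tested.

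Among the fibrillar genes, 3 of 9 tested fell and 1 rose in GB vs. CON, beside 17.3% lower and 16.2% higher over all tested genes. In GB vs. GA 5 of 9 fell, beside 19.2% over all tested genes. COL1A2 was at 2758, 2639 and 2791 FPKM in CON1 to CON3, 2749, 2799.5 and 2780.1 in GA1 to GA3 and 2369, 2349 and 2299 in GB1 to GB3. The GB libraries all lay below the others, and CON and GA overlapped. The log2FC was -0.22 (SE 0.035, adjusted p = 0.00132) in GB vs. CON and -0.25 (SE 0.035, adjusted p = 0.000825) in GB vs. GA. COL1A1, its partner in type I collagen, was at 2544, 2335 and 2489.9 FPKM in CON1 to CON3, 2348, 2438 and 2504 in GA1 to GA3 and 2331, 2285 and 2229.7 in GB1 to GB3. The GB values were again the lowest, but by a margin that was small beside the spread of CON, since CON2 lay close to GB1. COL1A1 was not called, with a log2FC of -0.11 (SE 0.044, adjusted p = 0.0956) against CON, a 95% interval of -0.21 to -0.0062, and -0.091 (SE 0.044, adjusted p = 0.159) against GA. Without CON2, the log2FC against CON was -0.14 (SE 0.037, adjusted p = 0.022).

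COL3A1 encodes type III collagen, which forms thin fibrils together with type I in soft, distensible tissue. It was at 395, 367 and 397 FPKM in CON1 to CON3, 356, 378 and 383 in GA1 to GA3 and 299.8, 303 and 288 in GB1 to GB3. GB was lower than both other groups without overlap, and the log2FC was -0.38 (SE 0.046, adjusted p = 0.000277) against CON and -0.32 (SE 0.046, adjusted p = 0.000817) against GA. Type V collagen initiates fibrils and sets their diameter, and its main chains are encoded by COL5A1 and COL5A2. COL5A1 was at 161, 130.0 and 159 FPKM in CON1 to CON3, 160.5, 166 and 171 in GA1 to GA3 and 128, 134 and 126 in GB1 to GB3. COL5A2 was at 308, 276 and 308 FPKM in CON1 to CON3, 306, 305 and 311 in GA1 to GA3 and 280.1, 276 and 275 in GB1 to GB3. For both genes CON2 lay far below CON1 and CON3 and inside the range of GB, while the GA libraries all lay above GB. COL5A1 fell in GB vs. GA by a log2FC of -0.36 (SE 0.078, adjusted p = 0.00802), with -0.21 (SE 0.078, adjusted p = 0.0675) against CON. COL5A2 fell in GB vs. GA at -0.15 (SE 0.047, adjusted p = 0.0408), with -0.10 (SE 0.047, adjusted p = 0.14) against CON. Without CON2, both passed the test against CON, at -0.31 (SE 0.043, adjusted p = 0.00123) for COL5A1 and -0.15 (SE 0.03, adjusted p = 0.00719) for COL5A2. The COL5A2 call against GA was lost without any 1 of the 6 GA and GB libraries, at adjusted p between 0.0817 and 0.113, and with median-of-ratios scaling at -0.075 (SE 0.04, adjusted p = 0.206). COL5A3, the rarer type V chain, ranged from 7.28 to 9.08 FPKM among CON libraries, from 7.84 to 8.52 among GA and from 7.87 to 8.81 among GB, so that the groups overlapped, with a log2FC of -0.012 (SE 0.095, adjusted p = 0.94) against CON.

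COL11A1, a chain of type XI collagen that is best known from cartilage fibrils, had the largest fall of any collagen gene in GB vs. CON. It was at 41.7, 38.6 and 40.3 FPKM in CON1 to CON3, 37.3, 36.6 and 38.7 in GA1 to GA3 and 27.9, 27.8 and 26.2 in GB1 to GB3. Every GB library lay below every other library, and CON and GA overlapped. The log2FC was -0.55 (SE 0.052, adjusted p = 5.27e-05) against CON, a change of -31.8% on the fitted scale, and -0.45 (SE 0.052, adjusted p = 0.000224) against GA. COL27A1, a fibrillar collagen with a role in cartilage, went the other way. It was at 3.47, 3.22 and 3.51 FPKM in CON1 to CON3, 4.06, 3.99 and 4.10 in GA1 to GA3 and 4.50, 4.70 and 4.62 in GB1 to GB3. The groups did not overlap and stood in the order CON, GA, GB. The log2FC was 0.39 (SE 0.087, adjusted p = 0.00789) for GB vs. CON, 0.17 (SE 0.087, adjusted p = 0.188) for GB vs. GA and 0.22 (SE 0.087, adjusted p = 0.214) for GA vs. CON, so that only the first passed the test. COL24A1, the remaining fibrillar gene tested, ranged from 1.17 to 1.48 FPKM among CON libraries, from 1.49 to 1.57 among GA and from 1.47 to 2.11 among GB, and was not called at 0.34 (SE 0.16, adjusted p = 0.128) against CON.

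Of the basement membrane genes, 3 of 6 were tested, 0 were called by limma in GB vs. CON, where 0 had an unadjusted p under 0.05, and 1 was called lower in GB vs. GA. Over all tested genes, 17.3% were lower and 16.2% higher against CON, and 19.2% were lower against GA. COL4A1 and COL4A2 encode the chains of the most widespread type IV network. COL4A1 was at 637, 499 and 597 FPKM in CON1 to CON3, 652, 657 and 677 in GA1 to GA3 and 582, 579 and 555 in GB1 to GB3. COL4A2 was at 386, 306 and 378 FPKM in CON1 to CON3, 394, 398 and 429 in GA1 to GA3 and 325, 327 and 310.1 in GB1 to GB3. Both genes were highest in GA, and the low value of CON2 spread the CON libraries across the range of GB. COL4A2 fell in GB vs. GA with a log2FC of -0.34 (SE 0.082, adjusted p = 0.0129), a call that was lost without GA3 at -0.30 (SE 0.093, adjusted p = 0.0506). COL4A1 was at -0.21 (SE 0.078, adjusted p = 0.0712) in the same comparison and passed without CON1 or CON2, at -0.21 (SE 0.063, adjusted p = 0.039) and -0.21 (SE 0.036, adjusted p = 0.0033). Against CON the values were -0.0061 (SE 0.078, adjusted p = 0.963) for COL4A1, with a 95% interval of -0.18 to 0.17, and -0.15 (SE 0.082, adjusted p = 0.202) for COL4A2. COL4A2 passed against CON without CON2 at -0.25 (SE 0.046, adjusted p = 0.00463) and with library GC content as a covariate at -0.46 (SE 0.1, adjusted p = 0.0266). COL4A5, a chain of the type IV network in specialised basement membranes, was between 1.10 and 1.66 FPKM in the 9 libraries and was not called in any comparison.

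Type VI collagen forms beaded filaments near the cell surface and is assembled from the COL6A1, COL6A2 and COL6A3 chains. All 3 fell in GB vs. CON, where 17.3% of all tested genes did. COL6A1 was at 1632, 1599 and 1608 FPKM in CON1 to CON3, 1529.6, 1590.0 and 1549.7 in GA1 to GA3 and 1392, 1394 and 1366 in GB1 to GB3. COL6A2 was at 1369, 1498 and 1342 FPKM in CON1 to CON3, 1282, 1324 and 1276 in GA1 to GA3 and 1194, 1188 and 1181 in GB1 to GB3. COL6A3 was at 663, 694 and 659.6 FPKM in CON1 to CON3, 637, 665 and 661 in GA1 to GA3 and 563, 555 and 536 in GB1 to GB3. The GB libraries lay below all others for each chain, and unlike for most collagen genes CON2 was not the lowest CON library for COL6A2 and COL6A3 but the highest. COL6A1 had a log2FC of -0.22 (SE 0.032, adjusted p = 0.000853) against CON and -0.17 (SE 0.032, adjusted p = 0.00436) against GA. COL6A2 had -0.24 (SE 0.045, adjusted p = 0.00333) against CON and -0.12 (SE 0.045, adjusted p = 0.0676) against GA, which passed without CON2 at -0.12 (SE 0.027, adjusted p = 0.00948). COL6A3 had -0.29 (SE 0.038, adjusted p = 0.000489) and -0.25 (SE 0.038, adjusted p = 0.00131). The fall of COL6A1 against GA was not called with median-of-ratios scaling, at -0.094 (SE 0.037, adjusted p = 0.0932). The remaining type VI member, COL6A5, was between 0.03 and 0.20 FPKM.

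COL12A1, COL14A1 and COL16A1 belong to the FACIT group, collagens that sit on the surface of fibrils and link them to each other and to other matrix proteins. COL12A1 was at 653, 637 and 633 FPKM in CON1 to CON3, 672, 674 and 674 in GA1 to GA3 and 515, 511 and 511 in GB1 to GB3. It had the smallest standard error of the 25 tested collagen genes, and the groups were fully apart in the order GB, CON, GA. The log2FC was -0.32 (SE 0.031, adjusted p = 5.67e-05) against CON and -0.39 (SE 0.031, adjusted p = 1.55e-05) against GA. COL14A1 was at 5.66, 5.22 and 5.82 FPKM in CON1 to CON3, 5.54, 5.37 and 5.38 in GA1 to GA3 and 4.54, 4 and 4.20 in GB1 to GB3. GB lay below both other groups, and the log2FC was -0.35 (SE 0.087, adjusted p = 0.0126) against CON and -0.32 (SE 0.087, adjusted p = 0.0213) against GA. The latter call was lost without GA1, GA2, GA3, GB2 or GB3, at adjusted p between 0.0542 and 0.0723, and with median-of-ratios scaling at -0.25 (SE 0.086, adjusted p = 0.0547). COL16A1 was at 14.5, 13.5 and 13.7 FPKM in CON1 to CON3, 14.3, 13.3 and 12.7 in GA1 to GA3 and 11.6, 12.5 and 11.6 in GB1 to GB3. Its GB libraries were the lowest, and the log2FC was -0.22 (SE 0.068, adjusted p = 0.0367) against CON and -0.17 (SE 0.068, adjusted p = 0.1) against GA. The call against CON was lost without CON1, CON2, CON3, GA2, GB1 or GB3, at adjusted p between 0.0503 and 0.106. COL9A3, the other FACIT gene tested, had 0.63 to 1.19 FPKM and was not called.

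The multiplexins COL15A1 and COL18A1 are basement membrane-associated collagens whose ends can be cleaved into fragments such as endostatin. COL15A1, which lies between the basement membrane and the fibrils, was at 235, 209.7 and 238 FPKM in CON1 to CON3, 222, 226 and 227 in GA1 to GA3 and 199, 195 and 191 in GB1 to GB3. The GB libraries lay below the others, and the log2FC was -0.22 (SE 0.051, adjusted p = 0.00981) against CON and -0.21 (SE 0.051, adjusted p = 0.0151) against GA. The latter call was lost without GB3 at -0.19 (SE 0.06, adjusted p = 0.0523), and with median-of-ratios scaling at -0.13 (SE 0.044, adjusted p = 0.0553). COL18A1, the endostatin precursor, was at 58.5, 55.1 and 55.4 FPKM in CON1 to CON3, 58.8, 60.8 and 60.6 in GA1 to GA3 and 59.0, 56.8 and 55.1 in GB1 to GB3. GB overlapped both other groups, and the log2FC was 0.015 (SE 0.047, adjusted p = 0.834) against CON with a 95% interval of -0.09 to 0.12, and -0.076 (SE 0.047, adjusted p = 0.261) against GA.

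COL7A1 builds the anchoring fibrils that fasten a basement membrane to the stroma. It was at 4.27, 4.02 and 4.03 FPKM in CON1 to CON3, 4.19, 4.52 and 4.70 in GA1 to GA3 and 2.91, 2.94 and 2.84 in GB1 to GB3. All GB libraries lay under 3 FPKM and all others above 4, and the log2FC was -0.44 (SE 0.092, adjusted p = 0.00566) against CON and -0.55 (SE 0.092, adjusted p = 0.00207) against GA, the largest fall of a collagen gene in the latter comparison. COL8A1, a short-chain collagen of hexagonal networks that is known from vessel walls, rose. It was at 24.9, 25.2 and 27.2 FPKM in CON1 to CON3, 22.6, 22.6 and 23.6 in GA1 to GA3 and 31.1, 34.3 and 31.7 in GB1 to GB3. The groups were fully apart, with GA the lowest and GB the highest. The log2FC was 0.32 (SE 0.059, adjusted p = 0.00297) against CON and 0.49 (SE 0.059, adjusted p = 0.000321) against GA. COL8A2, the other chain of the type, was between 1.07 and 1.98 FPKM and was not called, with 0.046 (SE 0.2, adjusted p = 0.885) against CON and a 95% interval of -0.40 to 0.50. COL23A1, a transmembrane collagen, was at 0.44 to 1.35 FPKM and was not called in any comparison.

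Of the 13 calls in GB vs. CON, 12 held when any 1 of the 9 libraries was left out, COL16A1 being the exception, and of the 13 in GB vs. GA, 9 held, the exceptions being COL4A2, COL5A2, COL14A1 and COL15A1. With the GC share of the reads as a covariate, a value per library from the study's supplement, 8 collagen genes were lower and 0 higher in GB vs. CON. Over all 12578 tested genes, 909 were lower and 563 higher in that fit, beside 2178 and 2034 without the covariate. The median log2FC of the 25 went from -0.21 to -0.27, while that over all tested genes went from -0.016 to -0.085. COL4A2 and COL5A1 were gained, at -0.46 (SE 0.1, adjusted p = 0.0266) and -0.51 (SE 0.096, adjusted p = 0.0128), and COL15A1 went to -0.36 (SE 0.08, adjusted p = 0.0238). COL6A2, COL6A3, COL7A1, COL8A1, COL14A1, COL16A1 and COL27A1 were not called there. Of these, COL7A1, COL14A1 and COL16A1 kept log2FC at least as large as without the covariate, with larger standard errors, at -0.51 (SE 0.18, adjusted p = 0.112), -0.41 (SE 0.17, adjusted p = 0.172) and -0.22 (SE 0.13, adjusted p = 0.348). COL6A2 shrank to -0.091 (SE 0.06, adjusted p = 0.383), COL6A3 to -0.21 (SE 0.063, adjusted p = 0.0723), COL8A1 to 0.23 (SE 0.11, adjusted p = 0.221) and COL27A1 to 0.27 (SE 0.17, adjusted p = 0.345). In GB vs. GA the same covariate gave 14 lower and 1 higher, beside 2733 lower and 1336 higher over all tested genes. With median-of-ratios scaling GB vs. GA had 8 lower and 1 higher, and over all tested genes this scaling turned 1242 higher and 2409 lower calls into 1792 and 1594.

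GA cells received estradiol and progesterone alone, and in GA vs. CON no collagen gene was called. A vehicle or a change of medium is not described for CON, so the hormones cannot be told apart from these or from culture time. The 6 genes with an unadjusted p under 0.05 were COL4A1, COL4A2, COL6A2, COL8A1, COL12A1 and COL27A1. COL4A1 and COL4A2 were above CON in all 3 GA libraries, with log2FC of 0.21 (SE 0.078, adjusted p = 0.207) and 0.20 (SE 0.082, adjusted p = 0.24). Without CON2 these were 0.10 (SE 0.041, adjusted p = 0.3) for COL4A1 and 0.09 (SE 0.046, adjusted p = 0.406) for COL4A2. With library GC content as a covariate both turned below 0, COL4A1 to -0.05 (SE 0.11, adjusted p = 0.949) and COL4A2 to -0.10 (SE 0.1, adjusted p = 0.852), and with the replicate block added they were at -0.16 and -0.17. COL8A1 was below CON in all GA libraries at -0.17 (SE 0.059, adjusted p = 0.19), and COL6A2 likewise at -0.12 (SE 0.045, adjusted p = 0.215), which turned to 0.024 with the GC covariate. COL12A1 was above CON in all GA libraries at 0.072 (SE 0.031, adjusted p = 0.25). All-gene calls in this comparison were 31 higher and 26 lower as deposited and 24 higher and 66 lower with median-of-ratios scaling.

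Summed over the 39 collagen genes, CON had 11675 ± 292 FPKM (SD, n = 3), GA 11688 ± 189 and GB 10203 ± 163. The 3 GB sums lay below all others, and the GB mean differed by -12.6% from CON and by -12.7% from GA. Collagens made up 0.830% of all FPKM in CON, 0.812% in GA and 0.723% in GB. The fibrillar genes summed to 6073 ± 238 FPKM in CON, 6103 ± 120 in GA and 5366 ± 96.9 in GB, a GB mean -11.6% from CON and -12.1% from GA. The basement membrane class had a different order of groups, with GA the highest. Its genes summed to 936 ± 115 FPKM in CON, 1071 ± 32.2 in GA and 894 ± 24.0 in GB. GA lay above CON for this class by 14.4%, or by 7.01% without CON2, and GB differed from GA by -16.5% and from CON by -4.46% with overlap. The last difference was -10.6% without CON2 and 0.299% without CON1. The other collagen genes summed to 4667 ± 76.1 FPKM in CON, 4514 ± 70.2 in GA and 3943 ± 42.9 in GB. The GB mean differed by -15.5% from CON and by -12.7% from GA. Fibrillar genes held 52.0% of the collagen FPKM in CON, 52.2% in GA and 52.6% in GB. The smallest p that 3 against 3 libraries allow in an exact permutation test is 0.1, and no p is given for these sums.

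**Figure D3:**
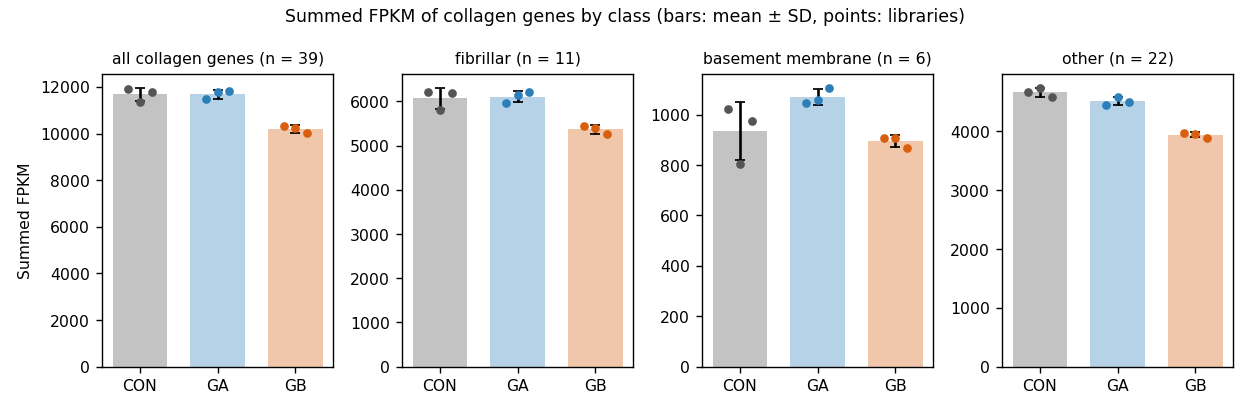
Summed FPKM of all 39 collagen genes and of the fibrillar, basement membrane and other classes, with bars for the group mean, error bars for the SD and a point per library (n = 3). GB is lowest for all collagen genes at 10203 FPKM, and the basement membrane class is highest in GA, with CON2 far below the other CON libraries.

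Chains that assemble into 1 collagen type, or into shared fibrils, were also compared with each other, as the ratio of their FPKM within a library. For type I, the COL1A1 to COL1A2 ratio was 0.922, 0.885 and 0.892 in CON1 to CON3, 0.854, 0.871 and 0.901 in GA1 to GA3, and 0.984, 0.973 and 0.970 in GB1 to GB3. The GB libraries lay above all others, and the log2 ratio differed by 0.12 from CON and by 0.16 from GA. For type IV, the COL4A1 to COL4A2 ratio had a mean of 1.62 ± 0.037 in CON (SD, n = 3), of 1.63 ± 0.045 in GA and of 1.79 ± 0.011 in GB, which again lay above both groups. For type VI, the COL6A3 to COL6A1 ratio was 0.417 ± 0.015 in CON, 0.421 ± 0.0054 in GA and 0.398 ± 0.0060 in GB, below both. The COL6A1 to COL6A2 ratio was 1.153 ± 0.074 in CON, 1.203 ± 0.011 in GA and 1.166 ± 0.0087 in GB. For this pair GB overlapped CON, with a log2 ratio that differed by 0.018, and lay below GA, with a difference of -0.045. For type V, the COL5A1 to COL5A2 ratio was 0.504 ± 0.028 in CON, 0.540 ± 0.013 in GA and 0.467 ± 0.015 in GB, which overlapped CON. COL3A1 was set against both COL1A1 and COL5A2, its partners in fibrils, and stood lowest relative to each of them in GB. Its ratio to COL1A1 was 0.157 ± 0.0021 in CON, 0.153 ± 0.0016 in GA and 0.130 ± 0.0021 in GB. Its ratio to COL5A2, which lies next to it in the RefSeq gene order, was 1.302 ± 0.028 in CON, 1.21 ± 0.040 in GA and 1.07 ± 0.026 in GB, with no overlap between any groups. The ratio of COL11A1 to COL5A1 was 0.270 ± 0.024 in CON, 0.226 ± 0.0059 in GA and 0.211 ± 0.0055 in GB. That of COL8A1 to COL8A2 was 16.9 ± 5.9 in CON, 14.8 ± 1.3 in GA and 19.6 ± 3.0 in GB, which overlapped CON. That of COL5A3 to COL5A1 was 0.055 in CON, 0.050 in GA and 0.064 in GB, above both. Each difference named here in which the groups do not overlap has an exact two-sided permutation p of 0.1, the smallest that 3 against 3 can give, and 0.136 after Benjamini-Hochberg adjustment over the 30 tests of 10 pairs. Of the 30 tests, 22 stood at that smallest p. No scaling of a whole library can move these ratios.

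**Figure D4:**
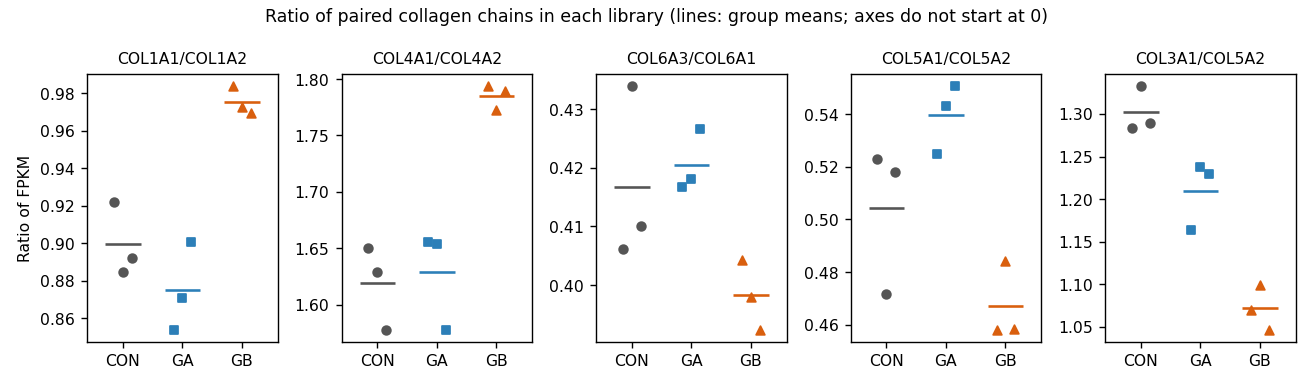
Ratio of FPKM between paired collagen chains in each library of CON, GA and GB, with lines at the group means and axes that do not start at 0. The GB points lie above the others for COL1A1/COL1A2 and COL4A1/COL4A2 and below them for COL6A3/COL6A1 and COL3A1/COL5A2, while for COL5A1/COL5A2 they overlap CON.

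Some of these genes are neighbours on a chromosome. In the RefSeq table for ARS-UCD2.0, which is not the build of the deposited values, 5 pairs of members follow each other directly, COL4A1 and COL4A2, COL6A1 and COL6A2, COL5A2 and COL3A1, COL4A3 and COL4A4, and COL4A5 and COL4A6. In the pair of COL5A2 and COL3A1, GB vs. CON had a call for COL3A1 alone, while in GB vs. GA both fell. As given above, that COL5A2 call was lost without any single GA or GB library. In GB vs. GA, COL4A2 was called without COL4A1, and COL6A1 without COL6A2. In GB vs. CON, COL6A1 and COL6A2 were both called, and neither COL4A1 nor COL4A2 was.

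Collagen chains are processed in the endoplasmic reticulum before they leave the cell, by prolyl and lysyl hydroxylases and by the chaperone SERPINH1, also called HSP47. Of 17 genes for synthesis and secretion, 4 rose and 4 fell in GB vs. CON, where 16.2% of all tested genes were higher and 17.3% lower. In GB vs. GA 1 rose and 5 fell, beside 9.87% and 19.2%. The counts of this list lie near those shares. P4HA3, a catalytic subunit of prolyl 4-hydroxylase, was at 0.940, 1.42 and 1.60 FPKM in CON1 to CON3, 2.58, 3.17 and 3.52 in GA1 to GA3 and 4.37, 4.50 and 2.57 in GB1 to GB3. It was lowest in CON, and GA and GB overlapped. It rose in GB vs. CON with a log2FC of 1.23 (SE 0.22, adjusted p = 0.00282) and was at 0.99 (SE 0.22, adjusted p = 0.0846) in GA vs. CON. SERPINH1 was at 841, 1011 and 852 FPKM in CON1 to CON3, 805, 834 and 777 in GA1 to GA3 and 1068, 1052 and 1022 in GB1 to GB3. GB was above both other groups, although CON2 came close to it. The log2FC was 0.38 (SE 0.068, adjusted p = 0.00296) against GA and 0.22 (SE 0.068, adjusted p = 0.0327) against CON, a call that was lost without CON1 at 0.17 (SE 0.071, adjusted p = 0.101) and likewise without CON3 or any GB library. P3H2, a prolyl 3-hydroxylase with a preference for type IV collagen, rose against CON at 0.41 (SE 0.086, adjusted p = 0.00614), while P4HA2, another prolyl 4-hydroxylase subunit, fell at -0.19 (SE 0.036, adjusted p = 0.00316). Of the 8 calls against CON, P3H2, P4HA2 and P4HA3 held when any 1 library was left out, and PLOD2, SERPINH1, CRTAP, PPIB and SEC23A did not.

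Outside the cell, propeptides are removed and chains are cross-linked by lysyl oxidases. Of 11 genes tested for these steps, 1 rose and 5 fell in GB vs. CON, beside 16.2% higher and 17.3% lower over all tested genes. In GB vs. GA 1 rose and 3 fell, beside 9.87% and 19.2%. LOXL1, a lysyl oxidase, was at 332, 373 and 341 FPKM in CON1 to CON3, 279.6, 289 and 276 in GA1 to GA3 and 248, 235 and 262 in GB1 to GB3. The groups were fully apart in the order CON, GA, GB. The log2FC was -0.49 (SE 0.056, adjusted p = 0.000183) against CON and -0.18 (SE 0.056, adjusted p = 0.0368) against GA, the latter lost without GA1, GA2, GA3, GB1 or GB2 at adjusted p between 0.0681 and 0.124. PCOLCE, an enhancer of propeptide cleavage, fell at -0.27 (SE 0.044, adjusted p = 0.00166) against CON and -0.23 (SE 0.044, adjusted p = 0.00385) against GA. ADAMTS3, a propeptide-cleaving protease, rose at 0.38 (SE 0.073, adjusted p = 0.00395) and 0.49 (SE 0.073, adjusted p = 0.00109). BMP1, the main C-propeptide protease, and LOX were not called, at -0.093 (SE 0.041, adjusted p = 0.111) and -0.10 (SE 0.046, adjusted p = 0.113) in GB vs. CON. LOXL4 also fell against CON in every fit without 1 library, while the falls of ADAMTS2 and LOXL2 were lost without GB2 or GB3.

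Cells bind collagen through integrins, the discoidin domain receptors and the endocytic receptor MRC2. Of 8 receptor genes, 0 rose and 3 fell in GB vs. CON, where 17.3% of all tested genes fell, and 0 rose and 4 fell in GB vs. GA, where 19.2% did. MRC2, which takes up collagen for degradation, was at 136, 141 and 140.1 FPKM in CON1 to CON3, 129, 132 and 135 in GA1 to GA3 and 111, 104 and 103 in GB1 to GB3. GB lay below both other groups, and the log2FC was -0.39 (SE 0.044, adjusted p = 0.000157) against CON and -0.32 (SE 0.044, adjusted p = 0.000664) against GA. DDR1, a receptor kinase for collagen, fell at -0.32 (SE 0.06, adjusted p = 0.00346) against CON and at -0.24 (SE 0.06, adjusted p = 0.016) against GA, the latter lost without GA3 or GB1 at -0.21 (SE 0.067, adjusted p = 0.0609) and -0.23 (SE 0.072, adjusted p = 0.0509). ITGA1, an integrin subunit for type IV collagen, was called lower in both comparisons, at -0.12 (SE 0.04, adjusted p = 0.0473) and -0.14 (SE 0.04, adjusted p = 0.027), and lost the call against CON without any 1 library other than CON2 and the call against GA without GA1, GA3, GB1 or GB2. ITGB1, the beta subunit that all collagen-binding integrins share, was called lower in GB vs. GA at -0.15 (SE 0.032, adjusted p = 0.00829), though not with median-of-ratios scaling, at -0.072 (SE 0.035, adjusted p = 0.163).

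Type IV collagen forms basement membranes together with laminins, nidogens and heparan sulfate proteoglycans. Of 15 such partner genes, 10 were tested, and GB had 1 higher and 4 lower against CON, and likewise against GA. The shares over all tested genes were 16.2% higher and 17.3% lower against CON and 9.87% and 19.2% against GA. AGRN encodes agrin, a heparan sulfate proteoglycan, and was at 4.85, 5.73 and 5.51 FPKM in CON1 to CON3, 5.09, 4.97 and 6.05 in GA1 to GA3 and 24.6, 24.1 and 24.4 in GB1 to GB3. Every GB library lay far above every other one, and CON and GA overlapped. The log2FC was 2.09 (SE 0.092, adjusted p = 1.91e-07) against CON and 2.09 (SE 0.092, adjusted p = 1.88e-07) against GA. LAMB1, a laminin beta chain, was at 333, 341 and 336 FPKM in CON1 to CON3, 339, 341 and 345 in GA1 to GA3 and 261, 255 and 257 in GB1 to GB3. GB lay below both groups without overlap, and the log2FC was -0.39 (SE 0.032, adjusted p = 2.09e-05) and -0.41 (SE 0.032, adjusted p = 1.55e-05). LAMA5, LAMB2 and HSPG2, which encodes perlecan, fell as well, with log2FC against CON of -0.41, -0.27 and -0.38. These 5 calls held when any 1 library was left out. With library GC content as a covariate, many of the calls of these 4 lists against CON were lost. Among the lost, P4HA3, P3H2, ADAMTS3, LOXL4, CRTAP, PPIB and SEC23A had log2FC about as large or larger there, with larger standard errors, at 1.47, 0.50, 0.36, -0.43, -0.16, -0.17 and -0.25. P4HA2, LAMB2 and HSPG2 shrank to -0.14, -0.17 and -0.30, ADAMTS2 and LOXL2 went to -0.018 and -0.042, and PLOD2 turned to -0.084. Those for AGRN, LAMB1, LAMA5, MRC2, LOXL1, DDR1, PCOLCE, ITGA1 and SERPINH1 held, the last 4 with larger log2FC of -0.50, -0.42, -0.24 and 0.51. In GA vs. CON limma called 0 genes in each of the 4 lists as deposited. LOXL1 was at -0.31 (SE 0.056, adjusted p = 0.0602) there and was called lower with each library rescaled to the same sum, at -0.34 (SE 0.059, adjusted p = 0.0481), and with median-of-ratios scaling, at -0.37 (SE 0.064, adjusted p = 0.0451). Its call in GB vs. GA was lost under both, at -0.15 (SE 0.059, adjusted p = 0.082) and -0.11 (SE 0.064, adjusted p = 0.253).

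**Figure D5:**
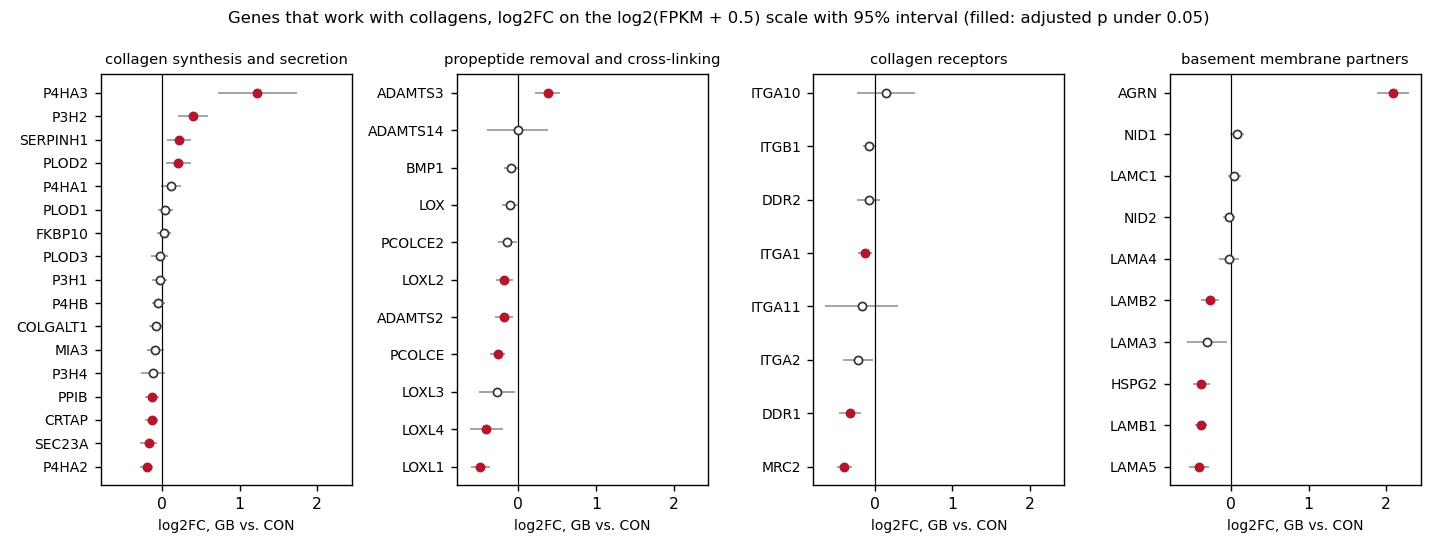
log2FC of GB vs. CON with its 95% interval on the log2(FPKM + 0.5) scale for genes of collagen synthesis and secretion, propeptide removal and cross-linking, collagen receptors and basement membrane partners, with filled points at an adjusted p under 0.05. AGRN and P4HA3 stand far to the right at 2.09 and 1.23, and the other called genes lie between LOXL1 at -0.49 and P3H2 at 0.41.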

How the data were processed

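RNA-seq values of 9 libraries of bovine endometrial cells were used, 3 each of CON, GA and GB, with groups taken from the sample labels. Per the submitters' processing notes, reads were trimmed with fastp 0.21.0, freed of rRNA with Bowtie2 2.33, aligned to ARS-UCD1.2 with HISAT2 2.2.1 and counted with RSEM 1.3.3, and the authors tested counts with DESeq2 1.34.0. The annotation release is not given in the sources used here. FPKM per gene, deposited by the authors with 2 decimals for each library, were the only values, and no read counts were used.

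Genes with a mean of at least 0.5 FPKM, 12578 of 17162, were fitted as log2(FPKM + 0.5) with limma 3.58.1 in R 4.3.3, with a variance trend and 1 mean per group, and p-values were adjusted by Benjamini-Hochberg over all of them. Design and thresholds were tested on simulated data. Chain ratios were compared by exact two-sided permutation with scipy 1.17.1, and plots were drawn with matplotlib 3.10.9. Library values are given for members with a mean of at least 10 FPKM or an adjusted p under 0.05 in any comparison. Members, lists and tests were chosen with earlier results of these data known. Alternatives were other pseudocounts, filters, scalings and fits, library GC content, blocking by replicate number, and leaving out each library. For sums and ratios, leaving out libraries was added after seeing the data. Replicate numbers were not taken to pair the samples. Deviations from group means correlated at -0.0306 to 0.0772 for same-numbered libraries and at -0.0678 to 0.0565 for differently numbered ones. These values cannot settle whether a weak pairing exists. With 3 libraries per group no library was tested as an outlier.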

Additional observations from a re-analysis of the deposited data

How the results depend on the processing

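The number of collagen genes called lower stayed between 10 and 14 against CON and between 9 and 14 against GA when 1 library was left out. Over all tested genes, the lower calls in these fits ranged from 1712 to 2092 against CON and from 1676 to 2727 against GA. With library GC content as a covariate, 0 collagen genes were higher in GB vs. CON, and with this covariate and the replicate block together 0 were higher and 0 lower, where all genes tested gave 514 calls. In that fit the collagen genes had a median log2FC of -0.35, with 22 of 25 below 0, beside a median of -0.063 over all tested genes. COL11A1 was at -0.66 (SE 0.13, adjusted p = 0.054), COL3A1 at -0.54 (SE 0.11, adjusted p = 0.0525) and COL12A1 at -0.35 (SE 0.073, adjusted p = 0.0569), none of them smaller than as reported. COL6A2, COL6A3, COL8A1 and COL27A1 shrank, to -0.10, -0.22, 0.23 and 0.25. The standard errors of all these named genes rose. Without a variance trend 2 collagen genes were higher in GB vs. GA, COL27A1 joining COL8A1, where all tested genes gave 1194 higher calls. The replicate block alone gave 10 lower and 2 higher in GB vs. CON and 12 lower and 1 higher in GB vs. GA, so that it ended the COL16A1 call (adjusted p = 0.0552) and changed no other call of a collagen gene. Over all tested genes the block gave 2098 lower and 1964 higher against CON and 2281 lower and 1153 higher against GA. In GA vs. CON 0 were called under each alternative run, and 15 of 25 turned direction under at least 1 of them. In GB vs. CON 6 of 25 did so and in GB vs. GA 2, all of them genes that were not called. Such turns were not counted over all tested genes. With median-of-ratios scaling the log2 difference of summed FPKM became -0.059 for all collagen genes, -0.053 for fibrillar and -0.11 for other genes in GA vs. CON, and -0.12, -0.11, -0.18 and -0.12 for all, fibrillar, basement membrane and other genes in GB vs. GA. Without the filter the median log2FC was -0.083 for GB vs. CON and -0.077 for GB vs. GA, where the 14 genes under it were included.

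Of 58 companion and marker genes, 19 turned direction in GB vs. CON under at least 1 alternative, 5 of them genes called as reported, and 0 of the turned values passed the test. In GB vs. GA 10 turned and in GA vs. CON 32, none of them called as reported. The values of the 5 called genes in GB vs. CON follow. With GC content as a covariate PLOD2 was at -0.084 and ACTA2 at 0.049. With the block and this covariate together PLOD2 was at -0.13, ADAMTS2 at 0.068, LOXL2 at 0.037 and PDGFRB at 0.019. The cause of these shifts was not tested. The 3 libraries per group and the unknown number of reads limit the precision most for genes near 0.5 FPKM, such as COL23A1, whose log2FC in GB vs. CON had a standard error of 0.30 beside 0.031 for COL12A1.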
